A study of Mus musculus with 12 samples.

Results

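The genes described here are 10 imprinted genes of the growth network: H19, Igf2, Igf2r, Dlk1, Meg3, Peg3, Mest, Plagl1, Cdkn1c and Grb10. They were matched by symbol to the Ensembl identifiers of the count files, which listed 49671 genes. The set was chosen by the counts of H19 and Igf2, which were strongly lower with Lap2 siRNA in serum-starved cells, so the values of the members in that comparison are a description, not a test. All 10 genes passed the filter of a count above 1 in at least 3 libraries, which left 18668 genes to test, but Cdkn1c did so with counts of only 0 to 3.

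The cells were NIH 3T3, a line of mouse embryo fibroblasts, and RNA-seq was carried out on 4 groups of 3 libraries. Cells were transfected with control siRNA or with siRNA against all isoforms of Lap2, the lamina-associated polypeptide encoded by Tmpo. Both were then starved in 0.3% FBS, and part of each was stimulated with 15% FBS for 45 min before total RNA was taken. All 4 groups therefore carried an siRNA, a single cell line stood for the fibroblast, and the labels do not say whether the libraries of a group came from separate cultures, so p-values measure only the spread between these libraries, which may be technical. Total counts were 18026298 to 26265253 per library. Tmpo, the targeted gene, was at 38.4% of the control mean in starved Lap2-depleted cells and at 22.2% in stimulated ones, with no overlap of groups in either. All 10 fibroblast markers examined were abundant, while Myod1, Myog and Myf5 (muscle), Krt18 (epithelium) and Plin1 (adipocyte) had 0 counts in all 12 libraries. Other members of these lists did have reads, such as Tnnt3 (12 to 116 counts), Cdh1 (3 to 27) and Pparg (1 to 18). So did macrophage and endothelial markers, such as Cd68 (22 to 54) and Tek (3 to 19).

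An imprinted gene is transcribed from the allele of 1 parent and silenced on the other, through DNA methylation laid down in the germ line. Igf2, Dlk1, Peg3, Mest and Plagl1 are expressed from the paternal allele, and H19, Igf2r, Meg3, Cdkn1c and, in most tissues, Grb10 from the maternal allele. Paternally expressed members tend to promote growth of the embryo and maternally expressed ones to restrain it, and many of them fall together after birth. Counts pool both alleles, so which allele a read came from was not measured.

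H19, Igf2 and Mest each hold a microRNA on their own strand, and these are shown because their host RNAs were the 3 members that differed most between the siRNAs in starved cells. The mature sequences (RefSeq, GRCm38.p6) are written 5′ to 3′ with the seed, bases 2 to 8, in capitals.
mmu-miR-675-5p (in H19, chr7:142577112-142577133, - strand): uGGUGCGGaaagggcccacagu
mmu-miR-675-3p (in H19, chr7:142577078-142577099, - strand): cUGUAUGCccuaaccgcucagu
mmu-miR-483-5p (in Igf2, chr7:142654968-142654989, - strand): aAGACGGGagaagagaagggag
mmu-miR-483-3p (in Igf2, chr7:142654932-142654952, - strand): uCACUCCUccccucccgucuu
mmu-miR-335-5p (in Mest, chr6:30741314-30741336, + strand): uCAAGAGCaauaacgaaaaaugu
mmu-miR-335-3p (in Mest, chr6:30741354-30741375, + strand): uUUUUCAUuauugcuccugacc
The members held 9 mature microRNAs in 4 genes, counting miR-770-5p, miR-770-3p and miR-1906 in Meg3, and all 9 seeds differed. The rows of these microRNA genes in the count files held 0 or 1 counts, so the libraries measured the hosts and not the mature microRNAs.

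Promoter windows of 250 bases before to 50 bases after a gene start (RefSeq, GRCm38.p6) were at hand for 8 members, as 15 windows; none was used for H19 and Cdkn1c. 5 windows are shown for members that moved together (Igf2, Mest, Plagl1) and for 1 that did not (Meg3). Capitals mark the GC box GGGCGG, the TATA box TATAAA and the CArG box, the site of SRF, on either strand, and copies may overlap.
Igf2 (chr7:142657447-142657746, - strand): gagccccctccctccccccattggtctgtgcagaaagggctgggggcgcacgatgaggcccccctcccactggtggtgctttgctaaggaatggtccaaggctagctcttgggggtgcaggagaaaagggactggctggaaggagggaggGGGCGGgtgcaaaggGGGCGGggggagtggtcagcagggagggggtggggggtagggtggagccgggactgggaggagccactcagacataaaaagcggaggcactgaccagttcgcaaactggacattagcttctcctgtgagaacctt
Igf2 (chr7:142661222-142661521, - strand): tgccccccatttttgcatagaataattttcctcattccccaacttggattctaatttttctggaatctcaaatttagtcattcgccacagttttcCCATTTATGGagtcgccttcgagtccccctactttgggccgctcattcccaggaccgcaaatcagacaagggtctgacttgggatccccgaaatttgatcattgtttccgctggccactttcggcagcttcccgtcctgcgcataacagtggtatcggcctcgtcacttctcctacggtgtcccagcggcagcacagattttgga
Mest (chr6:30737800-30738099, + strand): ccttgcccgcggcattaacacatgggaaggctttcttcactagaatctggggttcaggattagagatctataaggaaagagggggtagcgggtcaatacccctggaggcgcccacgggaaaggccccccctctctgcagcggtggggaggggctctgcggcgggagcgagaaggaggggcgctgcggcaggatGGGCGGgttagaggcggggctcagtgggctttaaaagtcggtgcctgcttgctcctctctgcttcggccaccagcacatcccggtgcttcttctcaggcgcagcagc
Plagl1 (chr10:13090582-13090881, + strand): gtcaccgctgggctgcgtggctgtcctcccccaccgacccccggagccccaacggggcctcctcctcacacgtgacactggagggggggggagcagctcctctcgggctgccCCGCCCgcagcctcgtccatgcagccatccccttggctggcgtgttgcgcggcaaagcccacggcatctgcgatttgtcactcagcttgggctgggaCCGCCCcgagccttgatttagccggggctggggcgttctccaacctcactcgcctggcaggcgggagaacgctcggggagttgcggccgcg
Meg3 (chr12:109540746-109541045, + strand): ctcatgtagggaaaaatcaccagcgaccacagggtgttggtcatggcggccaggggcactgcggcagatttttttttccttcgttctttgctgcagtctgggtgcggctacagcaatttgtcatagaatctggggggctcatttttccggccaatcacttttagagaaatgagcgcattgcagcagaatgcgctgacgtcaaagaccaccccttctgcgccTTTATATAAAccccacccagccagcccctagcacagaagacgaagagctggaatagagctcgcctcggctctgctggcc
The GC box lay in 8 of the 15 windows, in 5 of the 8 members, against 35.7% of the 32851 promoter windows of the whole table. The 8 windows include nearly the same Mest window under the starts chr6:30737800 and chr6:30737803. The share over all promoters is per window and not per gene. The CArG box, which occurred in 1.63% of all windows, was in 1 window of Igf2, shown above, and in 1 of Meg3 (chr12:109545148-109545447), not shown. The TATA box occurred in 13.6% of all windows and, among the members, in Meg3 alone, where copies on the 2 strands overlapped. A PLAGL1 site, GGGGGGCCCC, was in none of the 15 windows and in 0.0852% of all. These are matches of letters and say nothing of binding.

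Per kilobase of exon, the members spanned a wide range of levels in serum-starved control siRNA treated cells. Dlk1, a membrane ligand related to Notch ligands, stood at 27588 ± 567 normalized counts per kb (SD, n = 3), rank 17 of 18605 genes. H19 followed with 8239 ± 1555 per kb, then Igf2 with 2373 ± 623, Igf2r with 1722 ± 33.9 and Grb10 with 1586 ± 69.5. Meg3 was at 499 ± 89.2 per kb, Mest at 306 ± 58.0, Peg3 at 279 ± 3.65 and Plagl1 at 198 ± 22.5. Igf2 and Igf2r, and Mest and Peg3, were within their SDs of each other, whereas the other neighbours in this order were further apart than their SDs. Cdkn1c, an inhibitor of cyclin-dependent kinases, lay at the bottom, with 10 reads over all 12 libraries.

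**Figure D1:**
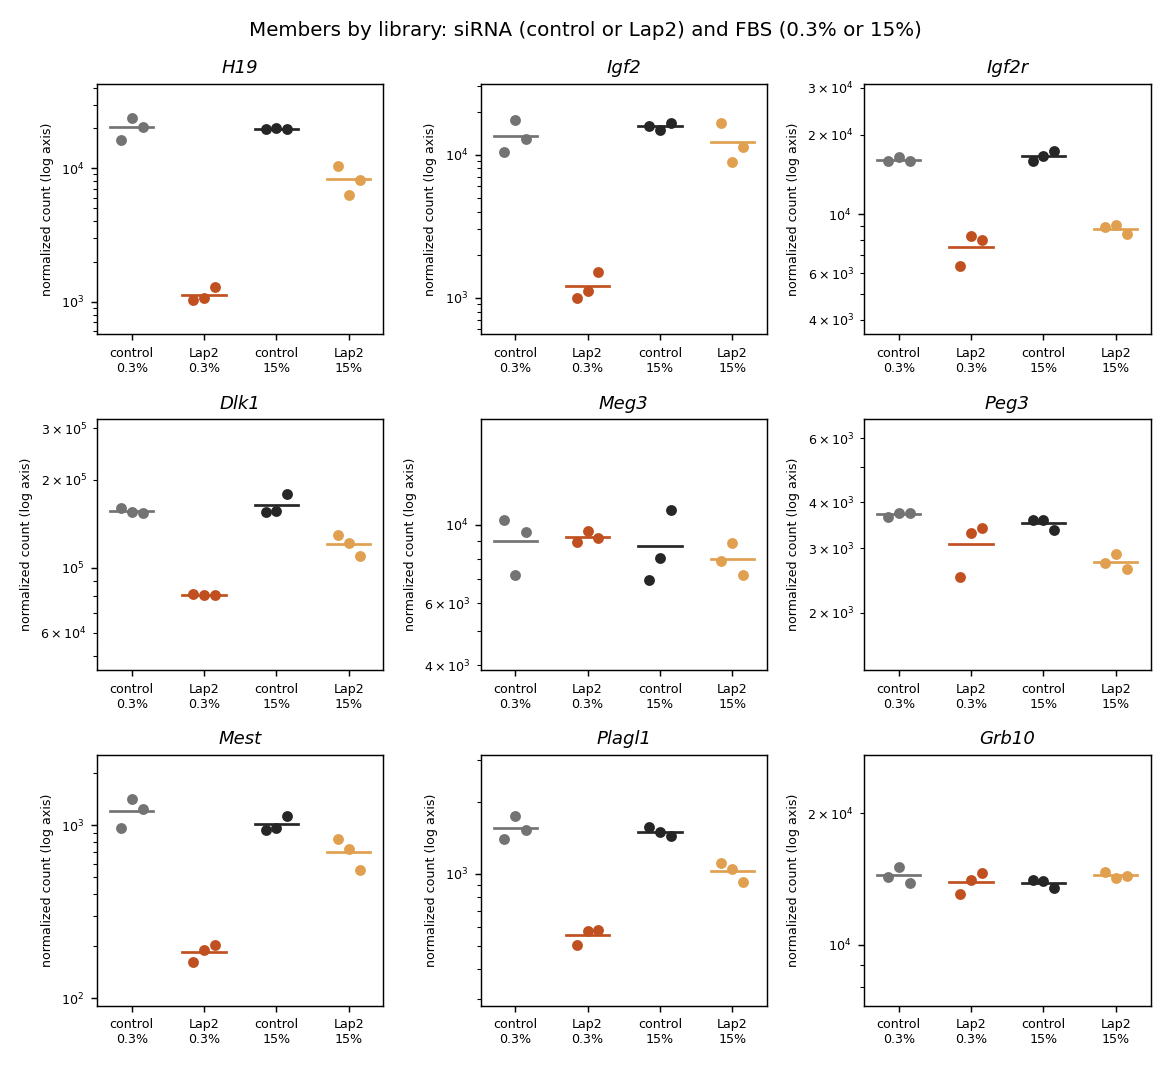
Normalized counts (log axis) of 9 members in each of the 12 libraries, by siRNA and FBS. Points are libraries and lines are group means of 3. In starved Lap2-depleted cells H19 lay between 1027 and 1290 and Igf2 between 1001 and 1507, while Grb10 stayed between 13032 and 15101 in all 12 libraries.

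In starved cells, which chose the set, 5 members were more than 2-fold lower with Lap2 siRNA by fitted log2 fold change (log2FC), none was higher by that much, and 9.70% of all genes were lower by more than 2-fold. H19, a maternally expressed noncoding RNA (chr7:142575529-142578143, minus strand, GRCm38), had 16361, 24005 and 20436 normalized counts in control siRNA treated cells and 1027, 1069 and 1290 in Lap2-depleted cells. The Lap2-depleted mean was thus 5.57% of the control mean (log2FC -4.17). Igf2, the fetal growth ligand that lies close to H19 and shares enhancers with it (chr7:142650766-142666816, minus strand), went from 10367, 17413 and 12954 to 1001, 1116 and 1507. Its mean was 8.90% of control (log2FC -3.49). The starved control libraries varied among themselves by 1.47-fold for H19 and 1.68-fold for Igf2.

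The other members followed a graded order in starved cells. The log2FC was -2.71 for Mest, -1.49 for Plagl1 and -1.09 for Igf2r, just past 2-fold. Dlk1 was just short of it, with -0.95, and Peg3 was at -0.28. Grb10 and Meg3 were at -0.05 and 0.03, and their groups overlapped. Control and Lap2-depleted libraries did not overlap for 7 of the 9 members with enough reads for a fold. That count is only a description, as this contrast chose the set and the share over all genes was not computed. The Igf2r value rested on 1 library to stay past 2-fold, as it was -0.96 without Lap2-depleted replicate 1.

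In serum-stimulated cells 6 of the 10 members were lower with Lap2 siRNA at an adjusted p under 0.05 (edgeR) and 0 were higher. Of all genes tested, 12.1% were lower and 11.4% higher by the same call. The rule that chose the genes did not use the 6 stimulated libraries. H19 and Igf2 were, however, chosen for low values with the same siRNA in the same cell line, and earlier results of these data were known. This test is therefore not fully independent of the choice. H19 had 19891, 20135 and 19639 normalized counts in control libraries and 10420, 6361 and 8203 in Lap2-depleted ones. All 3 Lap2-depleted libraries lay below all 3 controls, which were tight, and the mean was 41.9% of control (log2FC -1.26, SE 0.11, adjusted p = 2.3e-10, edgeR quasi-likelihood test). Of the 9 members with enough reads for a fold, H19 alone was past 2-fold in 15% FBS.

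Igf2 did not pass the test in 15% FBS. Its control libraries had 15852, 14878 and 16604 normalized counts and its Lap2-depleted libraries 16693, 8815 and 11266, so the groups overlapped and the highest value of all belonged to Lap2-depleted replicate 1. The log2FC was -0.36 (SE 0.15, 95% interval -0.67 to -0.06, adjusted p = 0.075, edgeR). Without Lap2-depleted replicate 1 it was -0.65 with an adjusted p of 0.00074. It was also called, at log2FC -0.37, with the replicate block (adjusted p = 0.039), in a fit of the 6 stimulated libraries alone (0.039) and without a filter on low counts (1.1e-07). These fits had nearly the same log2FC from the same overlapping libraries, so their lower adjusted p-values are not separate evidence. Over the settings the log2FC ranged from -0.38 to -0.28, with an adjusted p up to 0.33 (edgeR or DESeq2). With 1 library left out it ranged from -0.65 to -0.17, with an adjusted p up to 0.48 (edgeR).

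**Figure D2:**
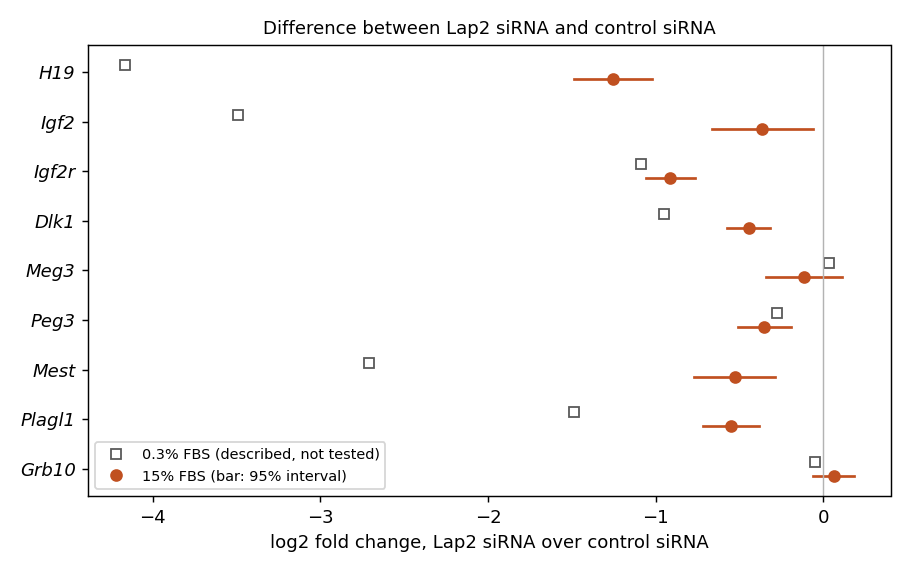
Fitted log2FC of Lap2 siRNA over control siRNA for 9 members, in 0.3% FBS (open squares, a description) and in 15% FBS (circles, with 95% intervals). H19 went from -4.17 to -1.26 and Igf2 from -3.49 to -0.36, while Igf2r lay at -1.09 and -0.91.

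H19 and Igf2 also parted from each other in relative amount. The ratio of H19 to Igf2 counts within a library, which needs no scaling between libraries, was 1.25, 1.35 and 1.18 in stimulated control cells and 0.624, 0.722 and 0.728 in stimulated Lap2-depleted cells. All Lap2-depleted ratios were below all control ratios. The difference of the log2 ratios was -0.87 (exact two-sided permutation test, p = 0.1, the smallest that 3 against 3 allow). In starved cells the means of the ratio were 1.51 ± 0.115 and 0.947 ± 0.0860 (SD, n = 3).

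Igf2r, the receptor that carries Igf2 to the lysosome and so clears it (chr17:12682406-12769664, minus strand), was about as low in stimulated as in starved cells. In 15% FBS the control libraries had 15945, 16590 and 17292 normalized counts and the Lap2-depleted libraries 8938, 9134 and 8395. These narrow groups did not overlap, and the mean was 53.1% of control (log2FC -0.91, SE 0.07, adjusted p = 1.2e-11, edgeR). In 0.3% FBS the values were 15835, 16391 and 15855 against 6355, 8297 and 7998. Airn, the noncoding RNA that overlaps Igf2r on the opposite strand, had a log2FC of -0.27 in 15% FBS (adjusted p = 0.084). Whether the counting used the strand was not given in the sources used here, so reads of Igf2r and Airn cannot be told apart with certainty, although Airn had 124 to 286 counts in a library and Igf2r 6921 or more.

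Dlk1 (chr12:109452823-109463336, plus strand) and Meg3, the noncoding RNA expressed from the maternal copy of the same domain (chr12:109541001-109571726, plus strand), behaved differently. Dlk1 took 0.426% to 0.786% of all reads of a library. It had 155226, 156674 and 178534 normalized counts in stimulated control cells and 129777, 121002 and 109531 in stimulated Lap2-depleted cells, and the mean was 73.5% of control without overlap (log2FC -0.44, SE 0.06, adjusted p = 1.5e-06, edgeR). In starved cells the control libraries had 159640, 155098 and 153450 and the Lap2-depleted libraries 81059, 80414 and 80410, a very tight group at 51.7% of control. Meg3 ranged from 6991 to 11027 in stimulated control cells and from 7214 to 8900 in stimulated Lap2-depleted cells, with overlap (log2FC -0.12, SE 0.11, 95% interval -0.34 to 0.11, adjusted p = 0.53, edgeR). The control libraries of Meg3 were the more scattered, and without control replicate 3 its log2FC was 0.10.

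Of the other genes of this domain, 4 were tested. Begain, which lies before Dlk1, was lower in 15% FBS (log2FC -0.57, adjusted p = 4.7e-05, edgeR). Rian and Mirg, noncoding RNAs transcribed after Meg3, had log2FC of -0.05 (adjusted p = 0.67) and -0.0002 (adjusted p = 1), and Rtl1 had 0.02 (adjusted p = 0.95).

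Mest, an alpha/beta-hydrolase also known as Peg1 (chr6:30723547-30748465, plus strand), had 941, 966 and 1139 normalized counts in stimulated control cells and 834, 733 and 549 in stimulated Lap2-depleted cells. The groups did not overlap, and the mean was 69.5% of control (log2FC -0.53, SE 0.12, adjusted p = 0.00095, edgeR). In starved cells the gap was wider, from 962, 1414 and 1248 to 163, 189 and 203. Copg2, which overlaps Mest on the opposite strand and encodes a coatomer subunit, had a log2FC of -0.10 in 15% FBS (adjusted p = 0.30) and fell by 0.59 on the log2 scale in 0.3% FBS (adjusted p = 9.6e-09). Cpa4, the other gene tested in the Mest domain, had few reads, with 2 to 69 counts in a library. Its mean went from 55.0 to 3.71 normalized counts in 0.3% FBS, where it was called lower. In 15% FBS the mean went from 46.1 to 28.0, and it was not called.

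Plagl1, a zinc finger transcription factor also called Zac1 that is known to bind regulatory sequences of other imprinted genes (chr10:13060504-13131694, plus strand), was lower in both conditions. It had 1566, 1500 and 1440 normalized counts in stimulated control cells and 1104, 1049 and 927 in stimulated Lap2-depleted cells, 68.3% of control without overlap (log2FC -0.55, SE 0.08, adjusted p = 3.6e-06, edgeR). In starved cells it had 1392, 1739 and 1520 against 505, 575 and 581. Peg3, another paternally expressed zinc finger gene (chr7:6703892-6730431, minus strand), was modestly lower in 15% FBS: the control libraries lay between 3373 and 3588 and the Lap2-depleted ones between 2634 and 2894 (log2FC -0.35, SE 0.08, adjusted p = 0.00078, edgeR).

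Grb10, an adaptor that binds and dampens the insulin and IGF1 receptors (chr11:11930508-12038683, minus strand), was 13471 to 14056 in stimulated control cells and 14240 to 14708 in stimulated Lap2-depleted cells. The groups did not overlap, but the difference was small and did not pass the test (log2FC 0.06, SE 0.06, 95% interval -0.06 to 0.18, adjusted p = 0.54, edgeR). Cdkn1c (chr7:143458339-143461050, minus strand) had 3, 3 and 0 counts in starved control cells, 2, 1 and 0 in stimulated control cells, 0 in all 3 starved and 1, 0 and 0 in stimulated Lap2-depleted libraries. All of these are at or under the floor of 3 counts, so no fold is given. By parental origin, 4 of the 5 paternally expressed members (all but Igf2) and 2 of the 5 maternally expressed members (H19 and Igf2r) were lower in 15% FBS. Of all genes tested, 12.1% were lower by the same call. Cdkn1c, which had too few reads to be judged, is among the 3 maternally expressed members not called.

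In control siRNA treated cells no member was called after 45 min of serum. Of the 8 members other than H19 and Igf2, 0 passed the test in edgeR, against 15.6% of all genes that rose and 13.9% that fell. At an unadjusted p under 0.05 the number was 1, Mest (log2FC -0.25, adjusted p = 0.099 in edgeR). DESeq2 also called 0, while other scalings called up to 5 members lower, as scaling to total counts moved the median of all genes by -0.21 in this comparison. H19 and Igf2 are given without a test, with log2FC of -0.03 and 0.22 and overlapping groups.

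In Lap2-depleted cells several members were higher after the same stimulation. The baseline here, the starved Lap2-depleted libraries, was part of the comparison that chose the set. A rise from it is therefore not independent of that choice, and the adjusted p-values and counts below are given as a description. Mest rose 3.81-fold, from 163, 189 and 203 to 834, 733 and 549 normalized counts (log2FC 1.93, SE 0.14, adjusted p = 2.6e-13, edgeR). Plagl1 rose 1.85-fold (log2FC 0.89, SE 0.09, adjusted p = 4.1e-10) and Dlk1 1.49-fold (log2FC 0.57, SE 0.06, adjusted p = 5.1e-09). Igf2r was called higher with a log2FC of 0.22 (SE 0.07, adjusted p = 0.015, edgeR), but the call did not stand with upper quartile scaling (0.12) or total counts (-0.01), which moved the median of all genes by -0.11 and -0.23. It was also lost without starved Lap2-depleted replicate 1 (0.10) and without stimulated replicate 1 (0.22, adjusted p = 0.052) or 2 (0.20). In all, 4 of 8 members rose and 0 fell, against 18.3% and 14.9% of all genes. This split depended on the scaling: with total counts 3 rose and 3 fell, namely Meg3 (-0.44), Peg3 (-0.39) and Grb10 (-0.18), and with upper quartile scaling 3 rose and 2 fell, Meg3 (-0.32) and Peg3 (-0.27). H19 and Igf2, described without a test, were 7.38-fold and 10.1-fold higher in stimulated than in starved Lap2-depleted cells. These comparisons use the same Lap2-depleted libraries as those above and are not independent of them, and Tmpo itself was lower in the stimulated libraries than in the starved ones (log2FC -0.62); its part in these values was not tested.

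**Figure D3:**
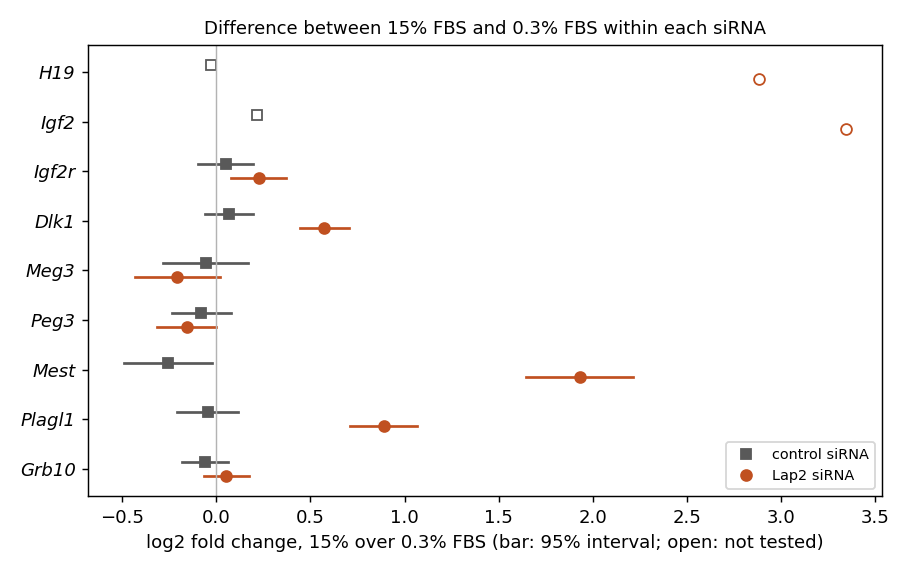
Fitted log2FC of 15% over 0.3% FBS for 9 members with control siRNA (squares) and Lap2 siRNA (circles). Bars are 95% intervals, and open symbols mark H19 and Igf2, which were not tested. With control siRNA all 9 lay between -0.25 and 0.22, and with Lap2 siRNA Mest, H19 and Igf2 lay at 1.93, 2.88 and 3.34.

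An interaction of siRNA and serum contains the starved comparison that chose the set, so it is not independent of that choice. The difference between the 2 serum responses was tested as this interaction in the same edgeR fit. It was positive for Mest (log2 difference 2.18, SE 0.18, adjusted p = 1.2e-10), Plagl1 (0.94, SE 0.12, adjusted p = 5.9e-07) and Dlk1 (0.51, SE 0.09, adjusted p = 9.4e-05), 3 of 8 members tested. By the same call 7.09% of all genes were positive and 6.51% negative. It was not passed by Igf2r (0.17, 95% interval -0.03 to 0.38, adjusted p = 0.30), Grb10 (0.11, adjusted p = 0.44), Peg3 (-0.08, adjusted p = 0.73) or Meg3 (-0.15, adjusted p = 0.61). The 3 positive members were all paternally expressed, but only 4 members of each parental origin were tested. Cdkn1c, with counts of 0 to 3, was among the maternally expressed ones. The maternally expressed H19 had a difference of 2.91, larger than those of the 3 called, and Igf2 one of 3.13, both without a test. No pattern by parental origin is drawn from these values.

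Some of the genes around H19 and Igf2 were also lower with Lap2 siRNA. In a window of 250 kb on each side, chosen after values had been seen, 14 genes were tested, of which 9 are neither H19, Igf2 nor overlap them. Of these 9, 4 were lower in 15% FBS and 0 higher, where 12.1% of all genes were lower, and 5 were not called. Among those not called, Ifitm10, Prr33, Gm33148 and Syt8 had at most 8, 5, 20 and 31 counts in a library. Their log2FC in 15% FBS was -2.00, -1.27, -2.18 and -0.81, from few reads. Lsp1, a leukocyte-specific F-actin binding protein gene whose start is 117 kb from that of H19, had a log2FC of -1.03 (SE 0.08, adjusted p = 2.8e-12, edgeR). The troponin genes Tnni2 and Tnnt3 had -1.11 (adjusted p = 0.034) and -0.74 (adjusted p = 0.0070), from at most 53 and 116 counts in a library, and the lysosomal protease gene Ctsd had -0.47 (adjusted p = 8.0e-06). Mrpl23, a mitochondrial ribosomal protein gene between these and H19, was at 0.08 (95% interval -0.15 to 0.32, adjusted p = 0.70). In 0.3% FBS the log2FC of Lsp1, Tnni2, Tnnt3 and Ctsd was -2.42, -2.33, -2.52 and -1.10, and that of Mrpl23 0.01. Tnnt3 is also on the list of muscle markers, where Myod1, Myog, Myf5 and Actc1 were at 0 in all libraries, Des had 2 to 15 counts and Myh3 0 to 7.

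Some genes on the strand opposite to H19 and Igf2 were also lower. Igf2os, which overlaps Igf2, had a log2FC of -0.94 in 15% FBS (SE 0.14, adjusted p = 2.5e-06, edgeR) and -3.19 in 0.3% FBS. Gm27483 and Gm27786, short RNAs annotated across from H19, had -1.60 and -2.72 in 15% FBS and -4.36 and -4.20 in 0.3% FBS. As the use of strand in counting was not given, reads from these genes and from H19 or Igf2 cannot be told apart. Gm49394, annotated over Igf2 on the same strand, was not among the genes of the count files.

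**Figure D4:**
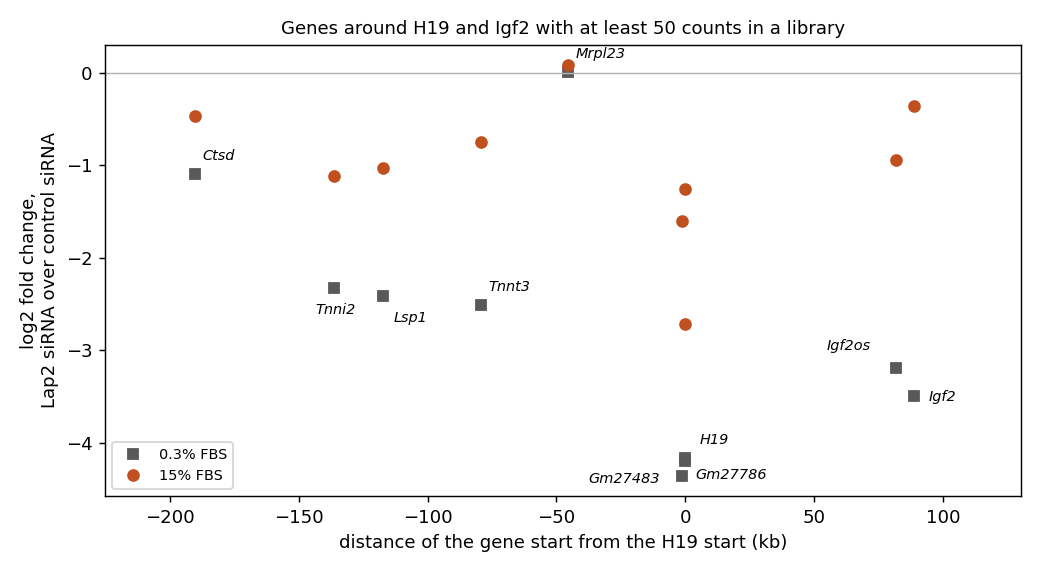
Fitted log2FC of Lap2 siRNA over control siRNA for genes around H19 and Igf2 with at least 50 counts in a library, against the distance of the gene start from the H19 start in kb, in 0.3% FBS (squares) and 15% FBS (circles). Mrpl23 sits at 0.01 and 0.08, and all other genes shown lie below 0 in both conditions.

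The genes most like H19 and Igf2 over the 12 libraries were found by the mean absolute difference of centred log2 CPM, over the 10449 genes that averaged 100 or more normalized counts. For H19 they were Mfap4 (0.280), a microfibril-associated glycoprotein gene, Igfbp5 (0.302), an IGF-binding protein gene, and Apod (0.314), which encodes a lipocalin. Igf2 was at rank 7 (0.387) and Mest at rank 14 (0.601). For Igf2 they were Nbl1 (0.307), a BMP antagonist gene, Igf2os (0.376) and H19 (0.387), and Mest was at rank 9 (0.485). Igfbp5 fell from a mean of 234 to 15.8 normalized counts in starved cells and from 213 to 62.9 in stimulated cells (log2FC -1.76, adjusted p = 3.8e-10 in 15% FBS, edgeR). Nbl1 went from 1924 to 241 and from 2586 to 1263, respectively. The likeness is a description over libraries that include those which chose H19 and Igf2.

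Of 67 other imprinted genes on the list, 46 were tested. In 15% FBS 8 were lower and 4 higher, with a median log2FC of -0.002, against a median of 0.02 over all genes. The shares of all genes called there were 12.1% lower and 11.4% higher. Dhcr7, the last enzyme of cholesterol synthesis, had a log2FC of -0.92 (adjusted p = 3.2e-11), Gab1, a docking protein of receptor tyrosine kinases, -0.72 (adjusted p = 1.3e-06) and Zrsr1, a splicing factor gene, 0.87 (adjusted p = 8.1e-07, all edgeR). In 0.3% FBS 16 were lower and 6 higher (median -0.20), where 18.6% of all genes were lower and 17.8% higher. Osbpl5 and Cd81, neighbours of Cdkn1c, were lower in 15% FBS, with log2FC of -0.33 (adjusted p = 0.00041) and -0.45 (adjusted p = 2.9e-06); they were the 2 called of 7 tested in that domain. Usp29 and Zim1, neighbours of Peg3, and Ddc, next to Grb10, had few reads and were not called (log2FC -0.12, 0.94 and 0.66).

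In the IGF pathway, which runs from the IGF ligands and their binding proteins through the receptors to the IRS docking proteins, 20 of 21 genes were tested. In 15% FBS 4 were lower and 2 higher (median log2FC -0.13), and in 0.3% FBS 11 were lower and 3 higher (median -0.23). The shares over all genes were 12.1% lower and 11.4% higher in 15% FBS, and 18.6% and 17.8% in 0.3% FBS. Apart from Igfbp5, the largest calls in 15% FBS were Igf2bp3, an mRNA-binding protein gene (log2FC -0.996, adjusted p = 3.7e-12), Irs2 (-0.64, adjusted p = 1.4e-06) and Irs1 (-0.52, adjusted p = 3.1e-05, all edgeR). In the other direction, Igf2bp1 went from a mean of 889 to 1249 normalized counts in 15% FBS and Pappa from 1730 to 2391. The signalling receptors Igf1r and Insr were at -0.15 (adjusted p = 0.16) and -0.08 (adjusted p = 0.44).

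Of 20 genes for imprint control and PLAG-family factors, 19 were tested, with 4 lower and 2 higher in 15% FBS (median log2FC -0.02) and 4 lower and 7 higher in 0.3% FBS (median 0.07). Among all genes the same calls gave 12.1% lower and 11.4% higher in 15% FBS, and 18.6% and 17.8% in 0.3% FBS. Zfp57, the zinc finger protein that guards methylation at imprinted control regions, went from a mean of 1257 to 659 normalized counts in 15% FBS (log2FC -0.93, adjusted p = 9.7e-09, edgeR). The DNA methyltransferase gene Dnmt3a (-0.54, adjusted p = 1.8e-06) and Tet3 (-0.44, adjusted p = 0.00014) were also lower, and Plagl2, a close relative of Plagl1, was higher (0.66, adjusted p = 2.3e-06). Ctcf, which binds the control region on the maternal allele and insulates Igf2 from the shared enhancers, had a log2FC of -0.09 in 15% FBS (adjusted p = 0.44) and 0.07 in 0.3% FBS (adjusted p = 0.49).

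The fibroblast markers moved in the same comparisons. In 15% FBS 8 of 10 were lower and 0 higher with Lap2 siRNA, and their summed level was 874712 to 960140 normalized counts in control libraries and 623521 to 696292 in Lap2-depleted libraries. In 0.3% FBS 7 were lower and 2 higher, with sums of 841204 to 868106 and 516915 to 623910. Over all genes tested, 12.1% were lower and 11.4% higher in 15% FBS, and 18.6% and 17.8% in 0.3% FBS. The summed markers of other cell types were far lower, at 2.97 to 23.4 for epithelium and 8.26 to 37.6 for endothelium over the 12 libraries. The macrophage markers summed to 57.2 to 60.4 in starved control and 63.4 to 83.2 in starved Lap2-depleted libraries, and to 37.3 to 58.0 and 57.0 to 62.4 in stimulated ones. The adipocyte markers summed to 5.39 to 7.85 in starved control and 18.5 to 22.9 in starved Lap2-depleted libraries, and to 1.12 to 4.95 and 5.78 to 19.3 in stimulated ones. In 0.3% FBS 1 gene of each of these 2 lists was called higher. The muscle markers summed to 99.4 to 139 in control libraries, 18.5 to 29.4 in starved and 50.9 to 71.6 in stimulated Lap2-depleted libraries. The part of these markers in the members' values was not tested. In bulk RNA, fewer cells of a kind and less RNA per cell cannot be told apart.

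**Figure D5:**
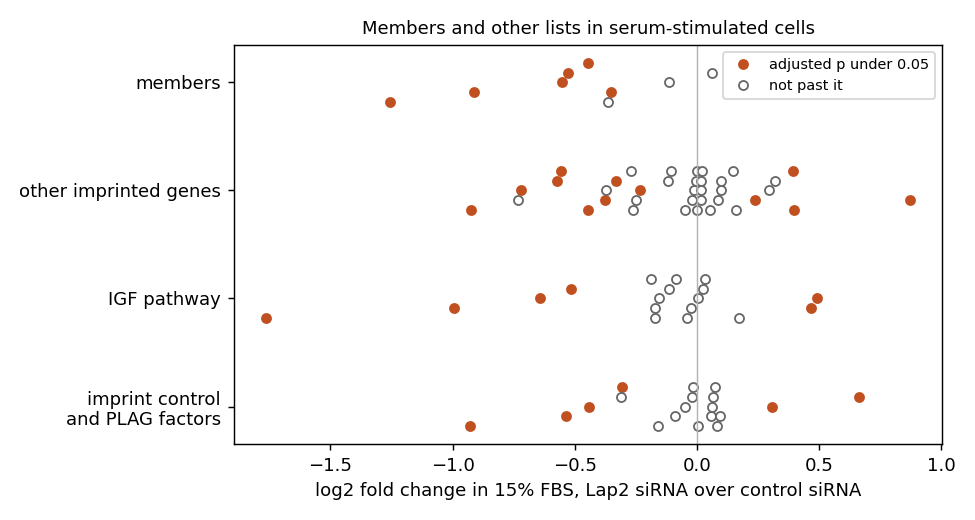
Fitted log2FC of Lap2 siRNA over control siRNA in 15% FBS for 9 members and for genes of the 3 other lists with at least 50 counts in a library. Filled circles passed an adjusted p under 0.05 and open circles did not, and height within a row only separates points. The 6 members that passed all lie below 0, while each other list has filled circles on both sides.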

How the data were processed

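Per the labels and methods of the study, total RNA depleted of ribosomal RNA was made into directional libraries, sequenced, aligned to mm10 (GRCm38) with TopHat2 and counted per gene with HTSeq. The authors deposited these counts without normalization, and tool versions, the annotation and the strand setting of the counting were not given in the sources used here. Symbols were assigned by Ensembl identifier, and gene spans were those deposited with the counts. In GENCODE M21, which gave exon lengths and overlapping genes, 90.8% of the listed genes had the same span. Groups and replicate numbers came from the labels.

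Here, 18668 genes were kept (more than 1 read in 3 or more of the 12 libraries) and fitted in R 4.3.3 with edgeR 4.0.16 (TMM, glmQLFit and glmQLFTest, 4 group means) and adjusted by Benjamini-Hochberg over all genes, with a threshold of 0.05. Intervals are 95%. A normalized count is the count over its library's effective (TMM) size, times the average effective size. The fit was tested on simulated data. The members, gene lists and tests were chosen with earlier results of these data known.

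All members were named. Of each list, up to 4 genes past the threshold in 15% FBS with the largest log2FC, genes in a member's domain, and the 3 genes most like H19 or Igf2 were named, and Tmpo as the target. Igf1r, Insr, Igf2bp1, Pappa, Ctcf, Tnni2, Tnnt3, Ctsd, Ifitm10, Prr33, Gm33148, Syt8, Igf2os, Gm27483 and Gm27786 fall outside this rule in whole or part and were chosen after their values were seen. Alternatives were DESeq2 1.42.0, total-count and upper-quartile scaling, filterByExpr, any count, only the groups compared, the replicate block and each library left out. No 2 libraries held identical counts. Total counts of 18026298 to 26265253 gave standard errors of 0.06 to 0.15 for the log2FC of the 9 members above the floor in 15% FBS. Tables and figures were made with Python 3.11.15, pandas 2.3.3, scipy 1.17.1 and matplotlib 3.10.9.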

Additional observations from a re-analysis of the deposited data

Results flagged for a closer look

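For 3 members the serum response differed between the siRNAs by the interaction test in edgeR. That test contains the starved comparison which chose the set, so these differences are not independent of the choice. For Mest the response in Lap2-depleted cells exceeded that in control siRNA treated cells by 2.18 on the log2 scale, from a log2FC of 1.93 against -0.25. For Plagl1 the excess was 0.94, from 0.89 against -0.05, and for Dlk1 it was 0.51, from 0.57 against 0.07. In each, all 3 stimulated Lap2-depleted libraries were above all 3 starved ones, while the control libraries overlapped.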

How the results depend on the processing

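Lap2 siRNA in 15% FBS called 6 or 7 members lower and 0 higher in every alternative run, the change being Igf2 (called without starved control replicate 2, starved Lap2-depleted replicate 1 or 3, each at -0.38, or stimulated Lap2-depleted replicate 1, at -0.65), and the interaction called 3, or 4 without starved Lap2-depleted replicate 1, when Peg3 was called too (-0.23, adjusted p = 0.025). Of 846 values of single members under an alternative, 797 kept their direction and side of the threshold or moved by less than the spread, 26 passed a threshold not passed before, 5 lost it, 14 changed sign and 4 untested values moved by more than the spread. The serum response with control siRNA was the least settled: against 0 members called, total counts called 5, upper quartile 2, any count 1 and the 2 groups alone 1, all lower, and with 1 library left out the number ranged from 0 to 1, the call being Mest without starved control replicate 1 (-0.39) or stimulated control replicate 3 (-0.34). Total counts moved the median log2FC of all genes by -0.21 and -0.23 for serum with control and Lap2 siRNA and by 0.12 and 0.10 for Lap2 siRNA in 0.3% and 15% FBS. In that scaling the control serum response of Igf2r and Dlk1 was -0.16 and -0.14 (upper quartile -0.044 and -0.028), and the response with Lap2 siRNA was -0.0058 for Igf2r and -0.18 for Grb10 (upper quartile -0.055 for Grb10), and 3 members rose and 3 fell with Lap2 siRNA, where the main scaling called 4 higher and 0 lower. With 1 library left out, signs changed only for values not called or not tested: in 0.3% FBS Meg3 ranged from -0.082 to 0.16 and Grb10 from -0.078 to 0.0089, and the control serum response of H19 from -0.15 to 0.13. Meg3 in 15% FBS ranged from -0.26 to 0.10 and in the interaction from -0.29 to 0.064. The control serum response ranged from -0.26 to 0.077 for Meg3, from -0.0012 to 0.10 for Dlk1 and from -0.11 to 0.063 for Plagl1, and the response with Lap2 siRNA from -0.0056 to 0.071 for Grb10. Without starved Lap2-depleted replicate 1 Peg3 was also called lower with serum (-0.30). Same-numbered libraries did not deviate together (correlations -0.15 to 0.13 over 18 pairs, and 4 of 12 libraries were closest to their own number), so the numbers were not taken as pairs. With the replicate block 7 members were called in 15% FBS, 0 and 4 for serum with control and Lap2 siRNA, 3 for the interaction, and 5 were past 2-fold in 0.3% FBS; the members past 2-fold there numbered 4 with total counts. The cause of these changes was not tested. For Cdkn1c, with 0 to 3 counts in a library, no fold could be given.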

Other observations

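Among genes upstream and downstream of the members, Irs1, a docking protein of the IGF1 and insulin receptors, fell with serum both with control siRNA (log2FC -1.27, adjusted p = 1.6e-14) and Lap2 siRNA (-1.23, adjusted p = 1.5e-13, edgeR), and the interaction was 0.04 (SE 0.12, adjusted p = 0.88). Irs2 rose from a mean of 1126 to 2246 normalized counts with control siRNA and from 1177 to 1443 with Lap2 siRNA, and the interaction was -0.70 (SE 0.13, adjusted p = 0.00019). Dnmt1, the maintenance DNA methyltransferase gene, was higher with Lap2 siRNA in starved cells (log2FC 0.74, adjusted p = 1.3e-09) and not called in stimulated cells (0.06, adjusted p = 0.65), with an interaction of -0.68 (adjusted p = 2.5e-05). Zrsr1 was 322 in starved and 152 in stimulated control cells and 333 and 278 in Lap2-depleted cells, with an interaction of 0.83 (adjusted p = 0.00034). These genes were chosen after their values were seen.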
